A study of Mus musculus with 4 samples.

Results

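The 37 genes described here encode the glucose transporters, the glycolytic enzymes, the enzymes and carriers that handle pyruvate and lactate, the oxygen sensing machinery and a set of hypoxia response targets. They were chosen by name, and a gene belonged to the set when its symbol in the deposited count table was on the list. All 37 symbols were found among the 54532 genes of the table, on 38 rows, because 1 symbol (Aldoa) stands on 2 rows. The genes were measured in CD11b+Ly6g+ myeloid-derived suppressor cells (MDSCs) sorted from the lungs of pre-metastatic niche (PMN) model mice, with 1 mRNA sequencing library for each of 4 groups. PMN is the state of a distant organ that tumor-derived factors prepare before tumor cells settle there. The C57BL/6 mice were 6 to 8 weeks old and all of them, controls included, received MCM, culture medium taken from B16F10 melanoma cells of the mouse, intraperitoneally at 300 µl per mouse for 10 days and, on day 7, 100000 B16F10 cells by tail vein injection. The control group (Ctrl) received no peptide. The other 3 groups received TP5, sFD17 or FR17 under the skin at 40 μM/kg per day from day 3, and lungs were taken on day 10. TP5 is the immunomodulating pentapeptide thymopentin, FR17 is a peptide that carries TP5 and assembles after cleavage by matrix metalloproteinase 2, and sFD17 is its counterpart with a scrambled TP5 part, which assembles as well. Each library came from the sorted cells of 10 to 12 pooled mice. The mice of a pool are not separate replicates, so no difference between libraries below has a replicate check, and intervals cover counting error only.

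Glycolysis splits glucose into pyruvate in the cytosol. Neutrophils and neutrophil-like MDSCs have few mitochondria and rely on it, and they export much of the pyruvate as lactate. When oxygen is low, hypoxia-inducible factor (HIF) escapes the prolyl hydroxylases that mark it for degradation, binds DNA at short motifs with the core ACGTG or GCGTG, and raises the transcription of glucose transporters, glycolytic enzymes and genes of mitophagy, collagen modification and vascular tone.

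The libraries held 17132880, 17165184, 15543071 and 19638228 counts in control, TP5, sFD17 and FR17, and TMM factors (edgeR's correction for library composition) ran from 0.849 in sFD17 to 1.17 in FR17. Itgam, which encodes CD11b, had 381, 370, 433 and 302 CPM (counts scaled to library size and TMM factor) in control, TP5, sFD17 and FR17, and Ly6g had 73.1, 97.8, 111 and 90.7 CPM. Both sorting markers were therefore present in every library. Summed markers of cell types differed between libraries. The neutrophil list holds the sorting marker Ly6g. The 16 neutrophil markers summed to 42019, 44040, 56168 and 35025 CPM in control, TP5, sFD17 and FR17, and the 12 macrophage markers to 9710, 7273, 3634 and 12047 CPM. The macrophage sum in FR17 was 3.31 times that in sFD17. In these sorted pools, fewer cells of a type and less RNA per cell cannot be told apart, and the part of other cells in the values below was not tested.

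The promoter windows of RefSeq (build GRCm38.p6, from 250 bases before to 50 bases after each start site) were read for the 34 of the 37 genes that the table holds, which leaves Slc2a3, Bnip3l and Ndrg1 without one. The HIF core was searched as ACGTG or GCGTG on both strands, so that CACGT and CACGC also count, and a CACGTG holds the core on both strands. It was present in 39 of the 47 windows of these genes (83.0%), and 31 of the 34 genes (91.2%) had it in at least 1 window. Of all 32851 windows in the table, 43.8% held it, and of all 27025 genes, 46.7%. Each pattern searched contains CG, the shares over all windows and genes were not matched for CG content, and HIF targets were among the genes chosen by name. A match describes letters in a window and is not a binding site. The stretches below lie before the RefSeq start of their window and outside annotated exons. Those of Gapdh, Slc16a3, Ankrd37 and Ldha lie inside the deposited span of the gene, which begins at an earlier start. They are printed 5′ to 3′ on the strand of the gene, with the core in capitals. The first set belongs to 6 of the 7 genes whose highest and lowest libraries differed by at least 2 times (the other, Slc2a3, has no window), with Bnip3 (1.66 times) added as a well-known HIF target.
Slc2a1 (chr4:119108672-119108700, + strand): tccccacagaacCACGCctctcagagtcc
Slc16a3 (chr11:120949028-120949052, + strand): caggcagcggtgACGTGcgcggggg
Egln3 (chr12:54204087-54204115, - strand): tgtgcatctcagACGTGagatccaggttt
Gapdh (chr6:125165801-125165839, - strand): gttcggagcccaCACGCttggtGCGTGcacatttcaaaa
Adm (chr7:110627555-110627619, + strand): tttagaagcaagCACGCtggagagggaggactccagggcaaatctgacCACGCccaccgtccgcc
Ankrd37 (chr8:45999986-46000100, - strand): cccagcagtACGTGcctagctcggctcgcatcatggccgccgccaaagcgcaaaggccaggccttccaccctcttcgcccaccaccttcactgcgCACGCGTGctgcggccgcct
Bnip3 (chr7:138909525-138909635, - strand): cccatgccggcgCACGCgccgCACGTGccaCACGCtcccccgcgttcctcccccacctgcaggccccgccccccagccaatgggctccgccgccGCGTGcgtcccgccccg

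The second set belongs to genes that held the core but differed less between the same libraries, and is shown for contrast.
Ldha (chr7:46845744-46845786, + strand): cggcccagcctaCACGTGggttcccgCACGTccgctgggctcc
Pgk1 (chrX:106186938-106186985, + strand): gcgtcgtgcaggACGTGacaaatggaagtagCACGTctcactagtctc
P4ha1 (chr10:59323268-59323295, + strand): tgtgacagagcgCACGTagcgagggctg
The whole window of Ldha nearest this stretch held 5 cores, that of Bnip3 held 4, those of Ankrd37, P4ha1 and Gapdh held 3 each, and that of Egln3 held 1. Both sets thus held genes with several cores.

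Levels were compared between genes as RPKM, which is CPM divided by the gene length in kilobases that the authors deposited. Slc16a3, the carrier that exports lactate from glycolytic cells, was the highest of the 37 in every library, at 464, 433, 725 and 307 RPKM in control, TP5, sFD17 and FR17. Pkm, the enzyme of the last glycolytic step, followed with 263, 247, 364 and 214 RPKM. Aldoa stood at 169, 162, 170 and 162 RPKM, Slc2a3 at 159, 134, 219 and 84.8 RPKM and Ldha at 127, 139, 137 and 120 RPKM, so that Slc2a3 ranked above Aldoa in sFD17 only. The median over the 37 genes was 12.8, 14.0, 15.4 and 11.4 RPKM in control, TP5, sFD17 and FR17. The lowest were Adm, at 0.29, 0.56, 0.28 and 0.67 RPKM, and the neuronal enolase Eno2, at 0.38, 0.44, 0.26 and 0.27 RPKM. Of the 37 genes, 10 lay above 50 RPKM in control and 10 below 5 RPKM.

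**Figure D1:**
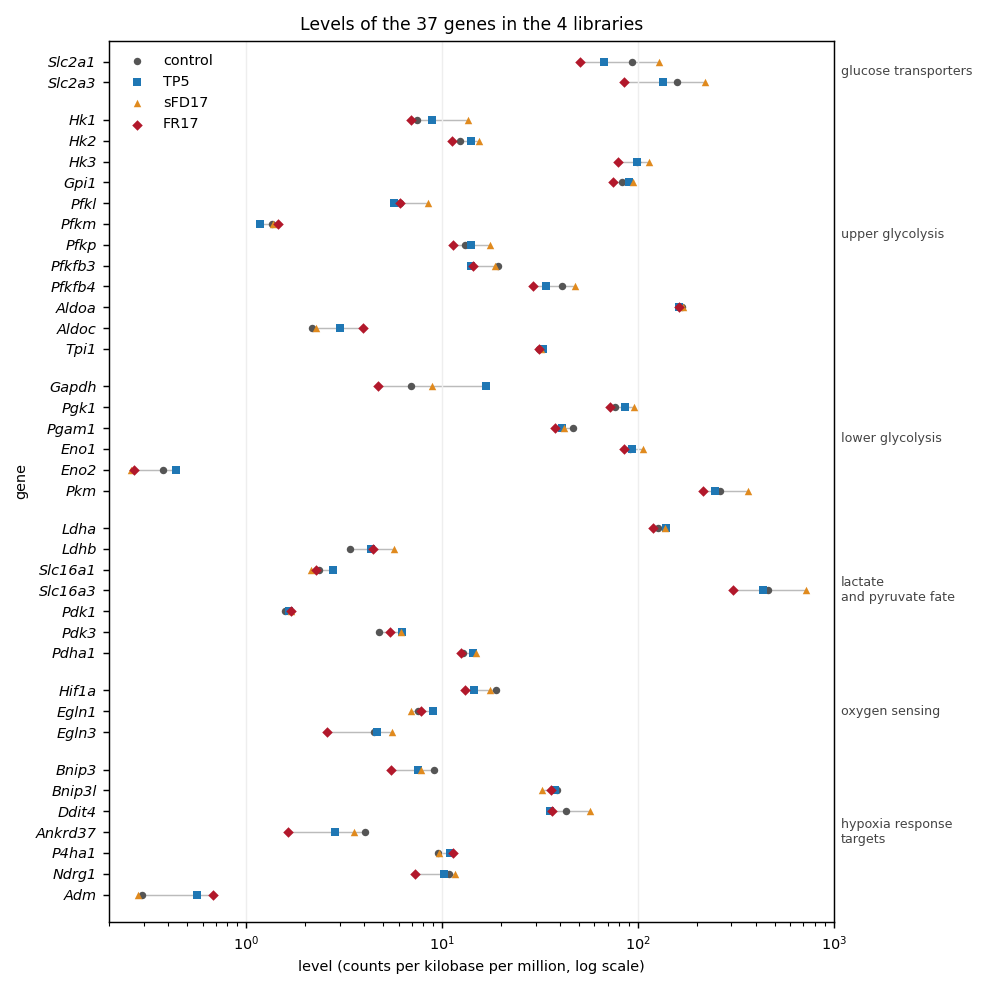
Level of each of the 37 genes in each library in RPKM (CPM per kilobase), on a log axis, with 1 point per library and genes grouped by role. The points of Slc16a3 run from 307 (FR17) to 725 (sFD17), those of Aldoa and Tpi1 lie almost on top of each other, and those of Gapdh run from 4.69 (FR17) to 16.7 (TP5).

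The 37 genes together took 0.911%, 0.900%, 1.03% and 0.822% of all counts in control, TP5, sFD17 and FR17. After TMM scaling their sum was 9244, 8805, 12168 and 7035 CPM in control, TP5, sFD17 and FR17, or 0.95, 1.32 and 0.76 times control. Slc16a3, Pkm and Slc2a3 made up 53.4% of that sum in control, 59.7% in sFD17 and 47.2% in FR17. Without the carriers Slc16a3, Slc2a1 and Slc2a3, the sum of the other 34 genes was 1.00, 1.18 and 0.87 times control in TP5, sFD17 and FR17. The carrier Slc16a1 is among these 34. Of the 37 genes, 19 had their highest CPM in sFD17 and 23 their lowest in FR17. The ratio of the highest to the lowest library was at least 2 for 7 genes, namely Gapdh, Slc2a3, Slc2a1, Ankrd37, Adm, Slc16a3 and Egln3, and below 1.2 for 7 genes.

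Each peptide library was then compared with the control library. With 1 pooled library per group, this describes how the libraries differed and cannot separate the peptide from other differences between the pools. Log2 fold changes came from TMM-scaled CPM with a prior count of 2, over the 16367 genes that reached 10 counts in 1 or more libraries. All 37 genes entered, and Adm alone had fewer than 10 counts in a library. The median log2 fold change of the 37 was 0.05 for TP5, 0.19 for sFD17 and −0.13 for FR17, beside 0.00, −0.03 and 0.02 for all genes tested. In TP5, 21 of the 37 were higher than control and 16 lower. In sFD17, 27 were higher and 10 lower, against 14 and 23 with library size alone in place of TMM. In FR17, 8 were higher and 29 lower, against 22 and 15 with library size alone. The direction of the list thus rests on the scaling: with library size alone the median of the 37 was −0.03 in sFD17 and 0.11 in FR17, while the median of all genes moved to −0.23 and 0.26. Between the 2 scalings the values of a gene shifted by 0.05, −0.22 and 0.25 (TP5, sFD17 and FR17), and the sign of values smaller than that depends on the scaling. Relative to all genes the 37 stood 0.21 higher in sFD17 and their median was −0.16 from that of all genes in FR17. A change of scaling moves all genes alike and so cannot test these distances. With no filter on low counts they were 0.15 and −0.09, and the median of the 37 in FR17 was −0.06, with 13 genes higher and 24 lower. The 3 comparisons share the control library, so their directions do not stand independently of each other.

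**Figure D2:**
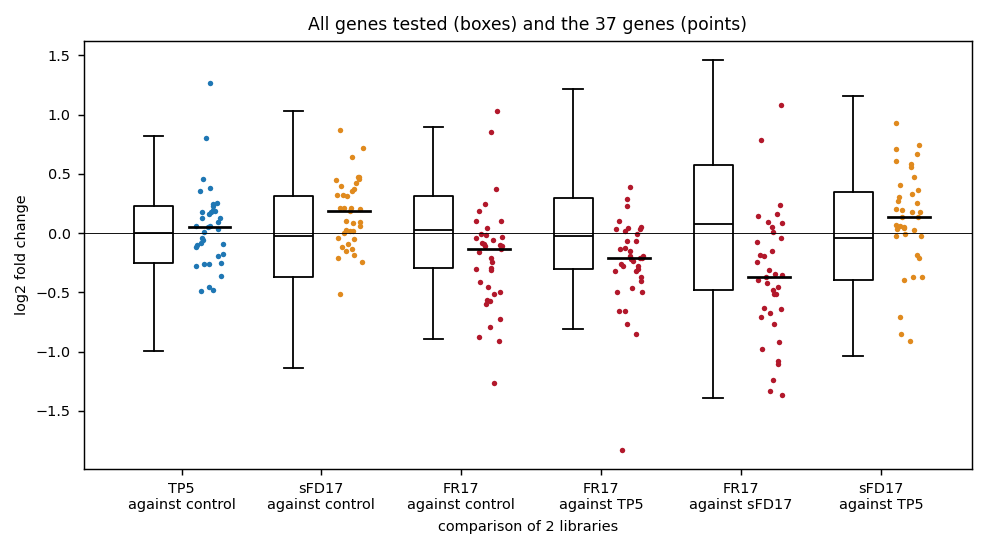
Log2 fold changes for 6 pairs of libraries, with boxes for the 16367 genes tested (quartiles, whiskers from the 5 to the 95 percentile) and points for the 37 genes, whose median is the short bar. The bar lies at 0.19 for sFD17 and −0.13 for FR17 against control, and at −0.37 for FR17 against sFD17, and most points lie inside the whiskers.

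A gene was called when it lay at least 2-fold from the library it was compared with. In TP5, 1 of the 37 genes (Gapdh) was at least 2-fold higher and 0 were 2-fold lower, where 3.19% of all genes tested were higher and 4.99% lower by that rule. In sFD17, 0 of 37 were 2-fold higher or lower, where 5.32% of all genes were higher and 6.47% lower. In FR17, 1 was higher (Adm) and 1 lower (Ankrd37), where 3.91% of all genes were higher and 3.57% lower. At 1.5-fold, TP5 had 2 genes higher (Gapdh and Adm) and 0 lower, beside 8.98% and 11.8% of all genes. The sFD17 library had 3 higher (Hk1, Ldhb and Slc16a3) and 0 lower, beside 13.4% and 15.6%. The FR17 library had 2 higher (Adm and Aldoc) and 6 lower (Slc2a1, Slc2a3, Slc16a3, Egln3, Bnip3 and Ankrd37), or 5.41% and 16.2% of the 37, beside 11.0% and 11.7% of all genes. The shares of the 37 called against control thus lay near or below those of all genes, except those 1.5-fold lower in FR17. The edgeR exact test for 2 libraries, at an unadjusted p under 0.05, called 1 of the 37 for TP5 (Gapdh), 0 for sFD17 and 1 for FR17 (Ankrd37), where it called 1.98%, 4.83% and 1.86% of all genes. That test compares the libraries and not the conditions. DESeq2's Wald test, at the same threshold, called 0 of the 37 in TP5, sFD17 and FR17, where it called 0.379%, 1.20% and 0.251% of all genes.

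Glucose enters the cell through GLUT1 (Slc2a1, ENSMUSG00000028645, chromosome 4 from 119108711 to 119137983) and GLUT3 (Slc2a3, ENSMUSG00000003153, chromosome 6 from 122727809 to 122801640). Slc2a1 had 5511, 4113, 5894 and 4078 counts in control, TP5, sFD17 and FR17, or 326, 234, 447 and 178 CPM. Slc2a3 had 19476, 17007, 20933 and 14108 counts, or 1153, 970, 1586 and 615 CPM. For both genes sFD17 was the highest library and FR17 the lowest. The log2 fold change of Slc2a1 against control was −0.48 for TP5 (95% counting interval −0.54 to −0.42), 0.45 for sFD17 (0.40 to 0.51) and −0.88 for FR17 (−0.94 to −0.82). For Slc2a3 it was −0.25 for TP5, 0.46 for sFD17 and −0.91 for FR17 (−0.94 to −0.88). In FR17, the level was thus 0.54 times control for Slc2a1 and 0.53 times for Slc2a3, past 1.5-fold but not 2-fold. With library size alone, both directions against control held in each peptide library. Together, the 2 transporters summed to 1479, 1204, 2033 and 792 CPM in control, TP5, sFD17 and FR17.

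The first enzymes of the pathway trap and rearrange glucose. Among the hexokinases, which phosphorylate it, Hk3 had 362, 365, 418 and 292 CPM in control, TP5, sFD17 and FR17, Hk2 had 73.8, 83.8, 92.2 and 67.3 CPM, and Hk1 had 63.6, 75.9, 116 and 58.9 CPM. Hk1 had the largest sFD17 value of the 37 relative to control, a log2 fold change of 0.87 (0.76 to 0.98), from 1074 counts in control and 1533 in sFD17. It also lay past 1.5-fold with library size alone. Gpi1, which isomerises glucose 6-phosphate, differed little, with log2 fold changes of 0.13, 0.19 and −0.15 for TP5, sFD17 and FR17. The phosphofructokinases, which catalyse the committed step, had values of −0.11, 0.47 and −0.01 for Pfkl, 0.09, 0.42 and −0.21 for Pfkp, and −0.19, 0.01 and 0.10 for Pfkm, the muscle form, with 60 to 111 counts. Pfkfb3 and Pfkfb4 make and break fructose 2,6-bisphosphate, the activator of phosphofructokinase. Pfkfb3 had 145, 106, 141 and 109 CPM and Pfkfb4 had 200, 166, 231 and 142 CPM in control, TP5, sFD17 and FR17. Their log2 fold changes were −0.45 and −0.26 for TP5, −0.04 and 0.21 for sFD17 and −0.42 and −0.50 for FR17, with none past 1.5-fold.

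Aldolase splits the 6-carbon sugar and triose phosphate isomerase interconverts the products. Aldoa had 491, 473, 496 and 471 CPM and Tpi1 had 86.4, 89.7, 88.2 and 85.6 CPM in control, TP5, sFD17 and FR17. Their highest and lowest libraries differed by 1.05 times each, the smallest spreads among the 37 genes. Aldoc, the aldolase best known from brain, had 120, 172, 98 and 296 counts in these libraries. FR17 was the highest library, with a log2 fold change of 0.85 (0.55 to 1.18) against control, past 1.5-fold. Of the 12 genes from hexokinase to triose phosphate isomerase, 7, 11 and 2 were higher than control in TP5, sFD17 and FR17, with medians of 0.03, 0.20 and −0.12. With library size alone the numbers higher were 7, 4 and 9 and the medians 0.08, −0.02 and 0.12, so the directions in sFD17 and FR17 depend on the scaling.

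Gapdh (ENSMUSG00000057666, chromosome 6 from 125161715 to 125166467) reduces NAD+ at the first energy-yielding step. It had 485, 1214, 484 and 445 counts in control, TP5, sFD17 and FR17. TP5 stood apart from the other 3 libraries, at 69.2 CPM against 28.7, 36.7 and 19.4 CPM. The log2 fold change against control was 1.27 for TP5 (1.12 to 1.42), 0.35 for sFD17 and −0.56 for FR17. The values of this gene are uncertain. Of the 100-base windows of its protein-coding transcripts, 46.9% occurred in no other annotated gene, and 86 other genes shared a window with it. Those 86 genes summed to 357, 349, 373 and 450 counts in control, TP5, sFD17 and FR17. How reads that fit several genes were counted is not given in the sources used here. On the per-length scale, Gapdh lay at 6.95 RPKM in control, while Aldoa before it in the pathway lay at 169 RPKM and Pgk1 after it at 76.1 RPKM.

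The enzymes after Gapdh differed less. Pgk1, which makes the first ATP, had 171, 193, 213 and 162 CPM in control, TP5, sFD17 and FR17, Pgam1, which moves the phosphate, had 85.0, 75.4, 76.7 and 69.0 CPM, and the main enolase Eno1 had 493, 504, 569 and 459 CPM. Their log2 fold changes ran from −0.17 to 0.18 for TP5, from −0.15 to 0.32 for sFD17 and from −0.30 to −0.08 for FR17. These 3 also share sequence with other genes: 33.0% of the coding windows were unique for Pgk1, 60.3% for Pgam1 and 60.5% for Eno1. The genes sharing windows with Pgk1 had 18 to 20 counts per library in sum, and those sharing with Eno1 had 304 to 394. Pkm had 22208, 21695, 24038 and 24594 counts in control, TP5, sFD17 and FR17, or 1315, 1237, 1821 and 1071 CPM. Its log2 fold change was −0.09 for TP5, 0.47 for sFD17 (0.44 to 0.50) and −0.30 for FR17 (−0.32 to −0.27). The annotation assigns 767 of its 5001 exon bases also to Gm49759, which lies on the same strand and had 1270 to 2087 counts per library. Eno2 had 30, 36, 16 and 29 counts, and its counting interval against control included 0 in each of the 3 peptide libraries.

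Pyruvate is reduced to lactate by Ldha and leaves the cell with a proton through MCT4 (Slc16a3). Ldha had 421, 461, 452 and 396 CPM in control, TP5, sFD17 and FR17, with log2 fold changes of 0.13, 0.11 and −0.09. Slc16a3 (ENSMUSG00000025161, chromosome 11 from 120948480 to 120960868) had 41639, 40395, 50918 and 37495 counts in control, TP5, sFD17 and FR17, or 2465, 2303, 3858 and 1633 CPM. Its log2 fold change was −0.10 for TP5, 0.65 for sFD17 (0.63 to 0.66) and −0.59 for FR17 (−0.61 to −0.57). Both of the last 2 values passed 1.5-fold, and neither did with library size alone, at 0.43 and −0.35. Ldhb, the form that favours lactate oxidation, had 90, 120, 117 and 159 counts, and its log2 fold change was 0.35 for TP5, 0.72 for sFD17 (0.33 to 1.15), or 0.51 with library size alone, and 0.37 for FR17. Slc16a1 (MCT1), which carries lactate in either direction, had 10.4, 12.3, 9.47 and 10.1 CPM in control, TP5, sFD17 and FR17.

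The alternative fate of pyruvate is entry into mitochondria, where pyruvate dehydrogenase (subunit Pdha1) is switched off by the kinases Pdk1 and Pdk3. Pdk1 had 12.3, 12.8, 13.1 and 13.2 CPM in control, TP5, sFD17 and FR17, Pdk3 had 12.2, 15.9, 15.8 and 13.9 CPM, and Pdha1 had 47.8, 53.6, 55.4 and 46.8 CPM. The log2 fold changes of these 3 genes ran from 0.06 to 0.38 for TP5, from 0.09 to 0.37 for sFD17 and from −0.03 to 0.19 for FR17. Pdha1 shares 603 exon bases with Map3k15 on the other strand, and whether strand was used in the counting is not given in the sources used here. Over the 7 genes of pyruvate and lactate handling, the median log2 fold change was 0.17 for TP5, 0.21 for sFD17 and −0.03 for FR17, and 0.22, −0.00 and 0.21 with library size alone.

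Hif1a encodes the oxygen-regulated subunit of HIF, and its transcript had 1868, 1511, 1370 and 1781 counts in control, TP5, sFD17 and FR17. After scaling these were 111, 86.1, 104 and 77.6 CPM, highest in control and lowest in FR17. The log2 fold change was −0.36 for TP5 (−0.46 to −0.26), −0.09 for sFD17 (−0.19 to 0.01) and −0.51 for FR17 (−0.61 to −0.42). HIF-1α is regulated mainly at the protein, which was not measured here. Of the prolyl hydroxylases, Egln1 (PHD2), the main oxygen sensor, had 27.2, 32.3, 25.0 and 28.0 CPM in control, TP5, sFD17 and FR17. Egln3 (PHD3, ENSMUSG00000035105, chromosome 12 from 54178981 to 54203860), itself a HIF target, had 201, 218, 196 and 157 counts, or 11.9, 12.4, 14.9 and 6.84 CPM. FR17 was the lowest library for Egln3, with a log2 fold change of −0.79 against control (−1.11 to −0.49) that was −0.55 with library size alone, short of 1.5-fold, and the value in sFD17 was 0.32 (0.03 to 0.61).

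The hypoxia response targets went in both directions in FR17. Ankrd37 (ENSMUSG00000050914, chromosome 8 from 45996902 to 46005707), an ankyrin repeat protein and HIF target, had 105, 77, 72 and 58 counts in control, TP5, sFD17 and FR17, or 6.22, 4.39, 5.46 and 2.53 CPM. Its log2 fold change was −0.49 for TP5 (−0.95 to −0.06), −0.18 for sFD17 (−0.64 to 0.26) and −1.26 for FR17 (−1.79 to −0.82), which was 0.42 times control and the lowest value of the 37. Of its 1539 exon bases, 349 lie also in Lrp2bp and 57 in Ufsp2, both on the other strand. Lrp2bp had 6, 8, 4 and 4 counts and Ufsp2 had 333, 324, 204 and 406 counts in control, TP5, sFD17 and FR17. Bnip3, a mitophagy receptor, had 347, 300, 234 and 284 counts, and its log2 fold change was −0.26 for TP5, −0.21 for sFD17 and −0.73 for FR17 (−0.96 to −0.50), or −0.48 in FR17 with library size alone. Its relative Bnip3l had 149, 145, 126 and 139 CPM in control, TP5, sFD17 and FR17, with values of −0.04, −0.25 and −0.10. Of the coding windows of Bnip3, 68.4% were unique, and the genes that share the others had 1 to 4 counts per library.

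Ndrg1, a stress-responsive protein of vesicle trafficking, had 71.6, 67.7, 76.6 and 48.0 CPM in control, TP5, sFD17 and FR17. Its log2 fold change of −0.58 in FR17 (−0.70 to −0.46) lay just short of 1.5-fold. Ddit4, an inhibitor of mTORC1, had 75.7, 62.5, 99.6 and 64.0 CPM, with log2 fold changes of −0.28, 0.40 and −0.24. P4ha1, a subunit of collagen prolyl 4-hydroxylase, had 39.4, 44.9, 39.5 and 46.6 CPM, with values of 0.19, 0.00 and 0.24. Adm, the precursor of the vasodilator adrenomedullin, had 8, 16, 6 and 25 counts in control, TP5, sFD17 and FR17. Its log2 fold change of 1.03 in FR17 passed 2-fold, but the counting interval ran from 0.01 to 2.56, and in TP5 a value of 0.80 had an interval from −0.36 to 2.38. Over the 7 targets the median was −0.08, −0.05 and −0.24 for TP5, sFD17 and FR17, and −0.03, −0.22 and 0.00 with library size alone.

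**Figure D3:**
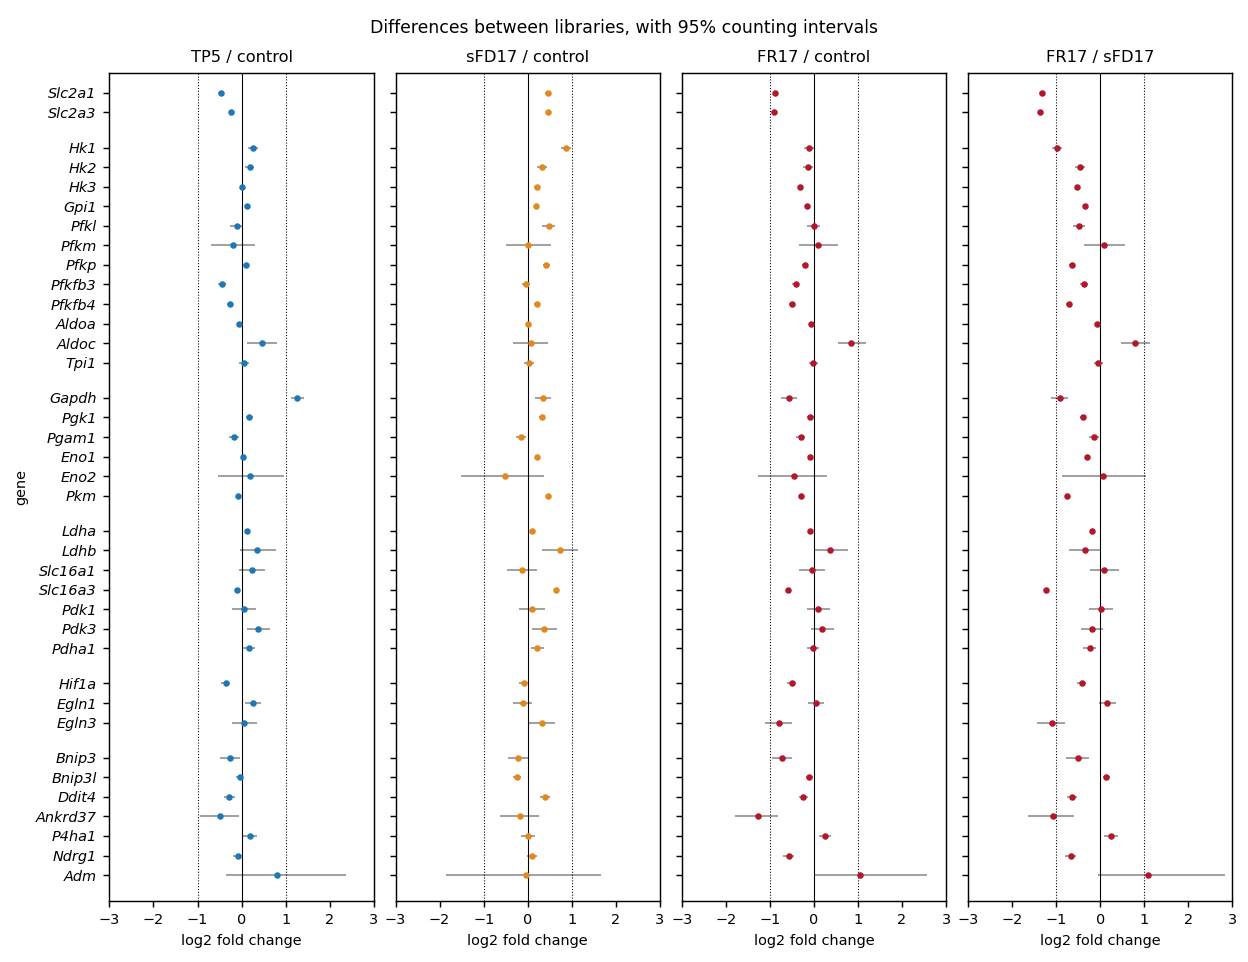
Log2 fold change of each of the 37 genes for TP5, sFD17 and FR17 against control and for FR17 against sFD17, with lines for the 95% counting interval and dotted lines at 2-fold. Gapdh lies past the dotted line in TP5 (1.27), Ankrd37 (−1.26) and Adm (1.03) in FR17, and no gene in sFD17, and the wide lines belong to Adm, Eno2, Ankrd37 and other genes with few counts.

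Most enzymes of the pathway exist as isozymes. Shares were taken among the listed genes of each family, which leave out some measured isozymes. Among these genes and per kilobase, the largest form was the same in every library. Per kilobase, Hk3 made up 83.2% of the 3 hexokinases in control and between 79.6% and 81.3% in the peptide libraries. The share of Hk1 was 6.3%, 7.3%, 9.6% and 7.1% in control, TP5, sFD17 and FR17. In control, Pfkp made up 63.8% of the sum with Pfkl and Pfkm and Aldoa 98.7% of that with Aldoc. Eno1 made up 99.6% of the sum with Eno2, Ldha 97.4% of that with Ldhb and Slc16a3 99.5% of that with Slc16a1. The enolase Eno3, outside the 37 and named after its values were seen, had 16.2, 20.1, 29.4 and 19.1 RPKM in control, TP5, sFD17 and FR17. It lay above Eno2 and below Eno1 in every library. Slc2a3 made up 63.1% of the sum with Slc2a1 in control, and 66.7%, 63.2% and 62.6% in TP5, sFD17 and FR17. The balance of GLUT3 to GLUT1 was thus nearly the same in FR17 and control, while both levels were lower in FR17. Of these shares, that of Egln1 in the sum with Egln3 varied most. It was 62.8%, 65.8%, 55.5% and 75.2% in control, TP5, sFD17 and FR17, and Egln3 made up the rest. Egln2, a prolyl hydroxylase outside this sum, had 18.4, 18.4, 19.4 and 19.3 RPKM in these libraries. It lay above Egln1 and Egln3 in every library, and was named after its values were seen. Bnip3l made up 81.0% of both BNIP3 proteins in control and 86.8% in FR17. In control, Pfkfb4 made up 68.1% of the sum with Pfkfb3 and Pdk3 75.1% of that with Pdk1, or 49.8% by raw counts. The kinases Pdk2 and Pdk4, outside the 37, had 1.57 and 0.64 RPKM in control, beside 1.58 for Pdk1. Pdk2 was named after its values were seen.

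**Figure D4:**
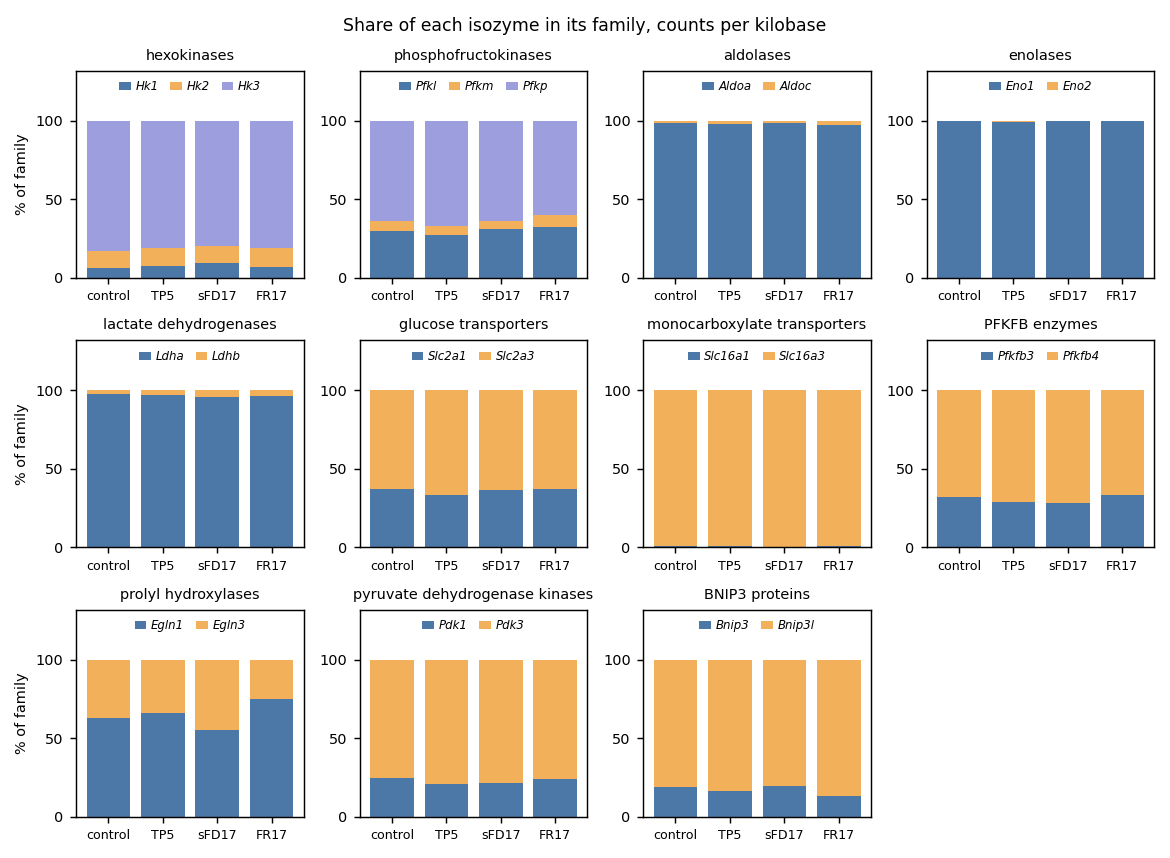
Share of each isozyme in the sum of the listed genes of its family per kilobase, in % (0 to 100), with 1 stacked bar per library and 1 panel per family. The bars leave out Egln2, Eno3, Pdk2 and Pdk4. The same listed isozyme is the larger part in all 4 bars of every panel. The panel of Egln1 and Egln3 shows the widest range, with Egln1 from 55.5% in sFD17 to 75.2% in FR17.

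The peptide libraries were also compared with each other, at the same dose and schedule. FR17 against sFD17 compares 2 assembling peptides that differ in the TP5 sequence, intact in FR17 and scrambled in sFD17. Of the 37 genes, 9 were higher in FR17 and 28 lower, with a median log2 fold change of −0.37, beside 0.07 for all genes tested. With library size alone 22 were higher and 15 lower, and the median of the 37 was 0.09 and that of all genes 0.52. At least 2-fold lower in FR17 were Slc2a3 (log2 fold change −1.37, counting interval −1.40 to −1.34), Slc2a1 (−1.33, −1.39 to −1.27), Slc16a3 (−1.24, −1.26 to −1.22), Egln3 (−1.11, −1.43 to −0.81) and Ankrd37 (−1.08, −1.64 to −0.59). Adm was 2-fold higher (1.08), with an interval from −0.06 to 2.84. These are 5 lower and 1 higher of 37, where 10.8% of all genes were 2-fold lower and 11.3% higher. At 1.5-fold, 12 were lower and 2 higher, or 32.4% and 5.41%, beside 21.3% and 24.7% of all genes. The exact test called 6 of the 37, all lower in FR17 (Slc2a1, Slc2a3, Hk1, Gapdh, Slc16a3 and Egln3), where it called 12.7% of all genes, and DESeq2's Wald test called 3 (8.11%), where it called 6.93% of all genes. With library size alone, 2 of the 37 passed 2-fold (Adm and Aldoc, both higher), where 25.7% of all genes were 2-fold higher and 4.78% lower on that scale, and the 5 lower genes lay at −0.91 for Slc2a3, −0.87 for Slc2a1, −0.78 for Slc16a3, −0.65 for Egln3 and −0.63 for Ankrd37, past 1.5-fold but not 2-fold.

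FR17 against TP5 compares the assembling peptide that carries TP5 with free TP5. Of the 37 genes, 9 were higher in FR17 and 28 lower, with a median of −0.21, beside −0.02 for all genes, and 15 were higher and 22 lower with library size alone. Gapdh was 2-fold lower in FR17, with a log2 fold change of −1.83, and 0 were 2-fold higher, where 2.88% of all genes were 2-fold lower and 7.04% higher. At 1.5-fold 5 were lower (Slc2a3, Gapdh, Eno2, Egln3 and Ankrd37) and 0 higher, beside 10.1% and 14.4%. The exact test called Gapdh alone, and 3.67% of all genes, and the Wald test called 1 of the 37 and 0.764% of all genes. In sFD17 against TP5, 26 of the 37 were higher in sFD17 and 11 lower, with a median of 0.14 beside −0.04 for all genes, and 13 were higher and 24 lower with library size alone. By the 2-fold rule 0 of the 37 were called, where 6.74% of all genes were higher and 5.64% lower. At 1.5-fold 6 were higher (Slc2a1, Slc2a3, Hk1, Pfkl, Slc16a3 and Ddit4) and 3 lower (Gapdh, Eno2 and Adm), beside 15.4% and 16.4% of all genes. The exact test called Gapdh, and 4.64% of all genes, and the Wald test called 0 of the 37 and 0.874% of all genes. Gapdh was thus the gene of the 37 in which TP5 stood furthest from control and from FR17. In sFD17 against TP5, Slc2a1 lay slightly further, at a log2 fold change of 0.93 beside −0.91 for Gapdh.

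Lists of related genes were counted by the same rules, beside shares of all genes at 2-fold of 3.19% higher and 4.99% lower in TP5, 5.32% and 6.47% in sFD17, and 3.91% and 3.57% in FR17. Of the 31 further genes of glycolysis and pyruvate, 25 were tested, and 18, 10 and 20 were higher than control in TP5, sFD17 and FR17. The median was 0.10, −0.15 and 0.13, and −0.37 and 0.37 in sFD17 and FR17 with library size alone. At 2-fold, Ldhc was higher for TP5, Pdk4 and Fbp1 (6 counts against 20 in control, named after its values were seen) were lower for sFD17, and 0 differed for FR17, so that the calls were 4% of the 25 genes in TP5 and 8% in sFD17, near the shares of all genes. Pdk4, a pyruvate dehydrogenase kinase induced by fasting, had 38, 24, 11 and 82 counts in control, TP5, sFD17 and FR17, the testis lactate dehydrogenase Ldhc had 42, 91, 42 and 60, and the intracellular glucose transporter Slc2a8 had 110, 73, 43 and 166. All 8 genes of the pentose phosphate pathway, which supplies NADPH to the oxidative burst, were tested, and 0 passed 1.5-fold in any peptide library, where 8.98% to 13.4% of all genes were higher and 11.7% to 15.6% lower. Its entry enzyme G6pdx had log2 fold changes of 0.18, 0.50 and −0.11, Tkt had 0.40, 0.28 and 0.15, and Pgls had 0.21, −0.14 and 0.43.

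All 15 genes of glycogen metabolism were tested, and 8, 12 and 2 were higher than control in TP5, sFD17 and FR17, with medians of 0.06, 0.16 and −0.21, which became 0.11, −0.05 and 0.03 with library size alone. By the 2-fold rule 0 of the 15 were called in any peptide library, where that rule called 7.48% to 11.8% of all genes. The targeting subunits of glycogen phosphatase led the list: Ppp1r3d had 67.2, 37.9, 72.1 and 37.5 CPM in control, TP5, sFD17 and FR17, and Ppp1r3b had 225, 166, 307 and 130 CPM. Glycogen synthase Gys1 had log2 fold changes of 0.64, 0.68 and 0.19. Of 14 HIF partners and regulators, 13 were tested, with medians of 0.01, 0.11 and −0.03, and of −0.11 and 0.22 in sFD17 and FR17 with library size alone. Past 2-fold in both TP5 and FR17 was Arnt2, a partner of HIF-1α named after its values were seen, with 2, 8, 1 and 16 counts in control, TP5, sFD17 and FR17. Epas1, which encodes HIF-2α, had 58.2, 31.9, 64.6 and 65.0 CPM in control, TP5, sFD17 and FR17, and the coactivators Ep300 and Crebbp had log2 fold changes of −0.46 and −0.60 in FR17 and of 0.64 and 0.52 in sFD17.

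Of 26 further hypoxia-induced genes, 23 were tested, and the median was −0.08, −0.17 and 0.05 for TP5, sFD17 and FR17, and −0.39 and 0.29 in sFD17 and FR17 with library size alone. At 2-fold, P4ha2 was lower for TP5, 2 genes including Angptl4 were lower for sFD17, and 0 differed for FR17, so that the calls were 4.35% of the 23 genes in TP5 and 8.70% in sFD17, near the 4.99% and 6.47% of all genes. Angptl4, an inhibitor of lipoprotein lipase, had 523, 306, 74 and 977 counts in control, TP5, sFD17 and FR17, with log2 fold changes of −0.82, −2.44 and 0.46. Angptl4 was lowest in sFD17 and highest in FR17, whereas the glucose transporters were highest in sFD17 and lowest in FR17, and control lay above TP5 for all 3 genes. P4ha2, a relative of P4ha1, had 39, 12, 18 and 50 counts.

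The sums of the 37 genes lay close to those of the neutrophil markers. Relative to control, the neutrophil sum was 1.05 for TP5, 1.34 for sFD17 and 0.83 for FR17, while that of the 37 genes was 0.95, 1.32 and 0.76. Of the 16 neutrophil markers, 11, 15 and 6 were higher than control in TP5, sFD17 and FR17. Per 100 counts of neutrophil markers the 37 genes had 22.0 counts in control, and 0.91, 0.98 and 0.91 times that in TP5, sFD17 and FR17. On that scale, which was chosen after the marker sums were seen, Slc2a3 stood at 0.80, 1.03 and 0.64 times control, Slc2a1 at 0.69, 1.02 and 0.65 times and Slc16a3 at 0.89, 1.17 and 0.79 times. The choice of markers decides this scale, on which S100a9 alone made up 25.0% of the neutrophil sum in control. In FR17, Slc2a1 stood at 0.54 and Slc2a3 at 0.53 times control, and the receptors Csf3r and Cxcr2 and the histidine decarboxylase Hdc stood at 0.49, 0.54 and 0.53 times. The granule genes Ltf, Camp and Ngp stood at 1.35, 1.44 and 1.24 times control in the same library. Of the 16 markers, 13 lay above Slc2a1 and 14 above Slc2a3 in FR17, while Csf3r lay below both, Hdc level with Slc2a3 and Cxcr2 level with Slc2a1.

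Macrophage markers took the opposite course, at 0.75, 0.37 and 1.24 times control for TP5, sFD17 and FR17, with 0 of 12 higher in sFD17 and 10 of 12 in FR17. Relative to control, the summed markers in FR17 were 1.71 times for T cells, 3.20 for NK cells, 1.29 for platelets, 1.57 for red blood cells, 1.27 for endothelium and 1.03 for fibroblasts and smooth muscle. In sFD17 these sums were 0.61, 0.76, 0.30, 0.62, 1.16 and 0.93 times control, and in TP5 they were 0.81, 0.61, 0.44, 0.46, 0.77 and 0.63 times. Pf4 made up 89.5% of the platelet sum in control, and without it the sums in TP5 and sFD17 were 1.10 and 1.28 times control, with 4 and 5 of the 6 platelet markers higher. Cd4 made up 44.3% of the T cell sum, and without it the sum in TP5 was 1.08 times control, with 4 of the 8 T cell markers higher. The remaining lists in TP5, sFD17 and FR17 were 1.04, 1.23 and 0.92 times control for monocytes, 1.77, 1.10 and 1.33 for dendritic cells, 1.52, 1.09 and 1.34 for B and plasma cells, 1.96, 1.27 and 2.54 for eosinophils with basophils and mast cells, and 1.47, 2.00 and 1.19 for lung epithelium. Nr4a1 made up 59.3% of the monocyte sum, and without it the values were 0.99, 0.98 and 1.09, with 5, 3 and 6 of the 7 monocyte markers higher than control. Scgb1a1 made up 85.0% of the epithelial sum, and without it the values were 1.00, 1.08 and 1.15, with 5, 4 and 7 of the 8 markers higher. Of 7 melanoma markers, Mlana, Tyr, Tyrp1, Dct and Sox10 were at 0 in at least 1 library. The part of these cells in the levels of the 37 genes was not tested.

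**Figure D5:**
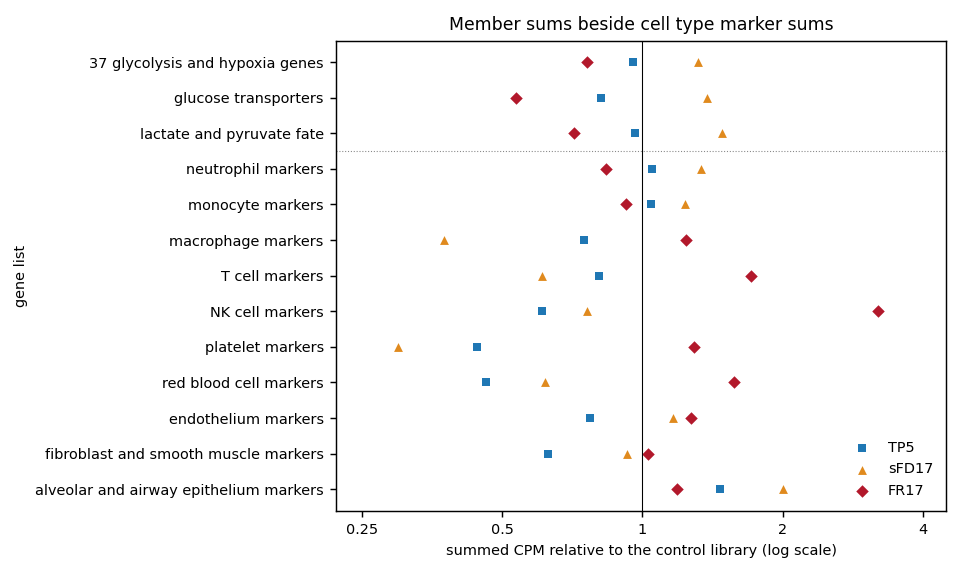
Summed CPM relative to the control library (log axis, 1 is control) for the 37 genes and the lists of glucose transporters and lactate and pyruvate fate, above the dotted line, and for markers of 10 cell types, below it, with 1 point per peptide library. In FR17 the 37 genes (0.76) and the neutrophil markers (0.83) lie below control and the macrophage markers (1.24) above it, and in sFD17 each lies on the other side of control (1.32, 1.34 and 0.37).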

How the data were processed

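Sorted lung CD11b+Ly6g+ MDSCs were sequenced as poly(A) mRNA with a directional NEBNext kit after TRIzol extraction, with 1 library for each of 4 groups and 15543071 to 19638228 counts per library. Raw read counts, not normalized, were deposited by the authors for each gene. The submitters' processing notes name HISAT2 2.0.5, StringTie 1.3.3b, featureCounts 1.5.0-p3 and edgeR 3.18.1, with genome build GRCm38.p6. Strand and multimapped-read settings are not given in the sources used here. Precision is limited by counting error and by the absence of replicates.

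Genes that reached 10 counts in 1 or more libraries entered (16367, of which 13465 reached 10 in every library). Log2 fold changes used edgeR 4.0.16 in R 4.3.3, TMM factors and a prior count of 2. The quasi-likelihood test needs replicates, so genes were called by a 2-fold rule. edgeR's exact test used a dispersion trend estimated with the 4 libraries as 1 group, which counts differences between groups as noise (biological coefficient of variation 0.212 to 0.448). Its 2-sided p compares 2 libraries, and only the number of genes at p under 0.05 is given. Intervals are exact conditional binomial 95% intervals on the 2 counts, with library size and TMM factor held fixed. A count of 0 allows up to 3 counts. The steps were tested on simulated data.

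Levels between genes used the deposited gene length. Where a symbol stood on several rows, the row with most counts was used. Uniqueness is the share of 100-base windows of protein-coding transcripts found in no other annotated gene of GENCODE M21, where 36 of the 37 genes had the deposited coordinates. The text names every member and, per related list, the 3 tested genes with at least 50 counts in a library and the largest absolute log2 fold change against control, apart from genes said to be named later. A gene that the rule names is not reported here. Members and lists were chosen with earlier results of these data known. Alternatives were library size alone, DESeq2 1.42.0 size factors and Wald test, other filters, prior counts, fold thresholds and dispersions, Benjamini-Hochberg adjustment, and isozyme shares of raw counts.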

Additional observations from a re-analysis of the deposited data

Results flagged for a closer look

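Slc16a3, the lactate exporter, had log2 fold changes against control of 0.65 in sFD17 and −0.59 in FR17. It is listed because the sFD17 library lay above control and the FR17 library below it, and each has 1 library, so the difference between the effects was not tested. Set against each other, FR17 lay at −1.24 from sFD17.

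A second row named Aldoa (ENSMUSG00000114515, chromosome 7 from 126800790 to 126809108) was left out of the comparisons. It had 0, 2, 1 and 15 counts in control, TP5, sFD17 and FR17, and is listed because the FR17 count lay above the 3 counts that 0 in control allows. The row used for Aldoa had far more counts in every library.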

How the results depend on the processing

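No paired analysis was possible because each group has 1 library, and for the same reason no library could be left out. Library size alone in place of TMM moved the median log2 fold change of all genes to 0.05, −0.23 and 0.26 in TP5, sFD17 and FR17, and that of the 37 genes to −0.027 in sFD17, 0.11 in FR17, −0.015 for FR17 against TP5, 0.090 for FR17 against sFD17 and −0.13 for sFD17 against TP5. The share of 2-fold calls over all genes that were higher went from 45.1% to 27.4% in sFD17, from 52.2% to 77.5% in FR17 (38.5% with at least 10 counts in every library), from 71.0% to 83.6% for FR17 against TP5, from 51.1% to 84.3% for FR17 against sFD17 and from 54.4% to 30.1% for sFD17 against TP5. On that scale 2 of the 37 passed 2-fold for FR17 against sFD17, beside 25.7% of all genes higher and 4.78% lower, and 2 for sFD17 against TP5, beside 4.33% higher and 10.1% lower. With no filter the median for FR17 against sFD17 was −0.26. With at least 10 counts in every library, 1 gene passed 2-fold in FR17, beside 1.28% of all genes higher and 2.04% lower. At 1.5-fold, 2, 3 and 8 of the 37 were called in TP5, sFD17 and FR17, 5 for FR17 against TP5, 14 for FR17 against sFD17 and 9 for sFD17 against TP5.

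For the exact test, a fixed coefficient of variation of 0.4 called 0 in TP5, 0 in sFD17, 0 in FR17, 1 for FR17 against TP5, 0 for FR17 against sFD17 and 0 for sFD17 against TP5, beside 0.923% to 5.07% of all genes over the 6 pairs. A coefficient of 0.1 called 3, 8 and 12 in TP5, sFD17 and FR17, 6 for FR17 against TP5, 18 for FR17 against sFD17 and 9 for sFD17 against TP5, beside 13.7%, 23.2%, 19.6%, 21.4%, 42.3% and 25.7% of all genes. Benjamini-Hochberg adjustment of edgeR's exact test left 0 calls in TP5, 0 in FR17, 0 for FR17 against TP5, 0 for FR17 against sFD17 and 0 for sFD17 against TP5, where unadjusted p under 0.05 gave 1, 1, 1, 6 and 1, and over all genes the adjusted test called 5, 0, 15, 370 and 84 of 16367. DESeq2's Wald test called 0 in TP5, 0 in FR17, 3 for FR17 against sFD17 and 0 for sFD17 against TP5, beside 0.379%, 0.251%, 6.93% and 0.874% of all genes. Shares among the listed genes of each family were also taken from raw counts, not counts per kilobase. The control values were 72.5% for Hk3, 79.5% for Pfkp, 98.7% for Ldha, 77.9% for Slc2a3 and 99.6% for Slc16a3. For Pfkfb4, Egln1, Pdk3 and Bnip3l they were 57.9%, 69.5%, 49.8% and 87.9%. Pdk3 was thus no longer the larger part of the sum with Pdk1. Egln2, outside these sums, had 869 counts in control, beside 459 for Egln1 and 201 for Egln3. Pdk2 and Pdk4 were outside these sums too. Of 20 single values past 1.5-fold or 2-fold, 10 held their side of the threshold with library size alone and 10 became weaker, 3 became weaker with no filter (Slc16a3 in FR17 against control at −0.52, and Egln3 and Ankrd37 in FR17 against sFD17), 1 with at least 10 counts in every library (Slc16a3 in FR17 at −0.58), and 20 held with DESeq2's size factors and 20 with a prior count of 0.5. Apart from the scaling, fold threshold and dispersion, the cause of these differences was not tested. Depth limits most the genes with few counts, Adm, Eno2, Ankrd37 and Pfkm among them.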
